A study of Mus musculus with 6 samples.

Results

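The genes of the MHC class II antigen presentation pathway were followed in the mouse cell line 32D, which grows in interleukin-3. The set holds 10 genes, taken by symbol from the 54532 genes of the deposited count table: Cd74, H2-Aa, H2-Ab1, H2-Eb1, H2-DMa, H2-DMb1, H2-DMb2, Ciita, Rfx5 and Rfxank. All 10 were found, and 6 had enough counts to enter the test across genes. Libraries of messenger RNA came from cells carrying human U2AF1 with the S34F substitution (S34F, 3 libraries) and from cells carrying wild-type human U2AF1 (WT, 3 libraries). Both constructs were delivered by the GFP retrovirus MSCV-IRES-GFP, so the WT cells also express an added U2AF1. The labels name the line only and do not say whether replicates were separate cultures or transductions, so the spread between libraries may be partly technical. The 10 genes were proposed with results of this S34F to WT contrast in view, so their differences between the groups are given as a description and not as a test.

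In antigen presenting cells, an alpha and a beta chain of MHC class II pair in the endoplasmic reticulum around the invariant chain, which Cd74 encodes. The invariant chain fills the peptide groove and steers the complex to endosomes, where cathepsins trim it and the H2-DM heterodimer exchanges its last fragment for an antigenic peptide. Transcription of these genes depends on RFX, a complex of Rfx5, Rfxank and Rfxap, which binds the X box of their promoters beside NF-Y at the Y box, and on CIITA, the coactivator that the bound factors recruit. CD74 also reaches the cell surface without class II chains, where it binds the cytokine MIF. Dendritic cells, B cells and macrophages are the usual sites of class II expression, while granulocyte precursors such as 32D are not known for it.

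The promoter windows of the class II chains are given because genes with the same pair of motifs differed in whether any count was recorded. RefSeq promoters on GRCm38.p6, from 250 bases before to 50 bases after a transcription start, were held for 7 of the 10 members and for 3 other class II chains. No promoter was held for Cd74, H2-Ab1 or Ciita, so the motifs were not looked for there. Each window below has 60 bases, 5′ to 3′ on the strand of the gene. Capitals mark ATTGG, the core of the Y box, and AACNNATG, a pattern for the X box whose letters were chosen after these sequences were seen.
H2-DMb1: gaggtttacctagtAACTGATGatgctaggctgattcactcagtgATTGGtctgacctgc
H2-DMb2: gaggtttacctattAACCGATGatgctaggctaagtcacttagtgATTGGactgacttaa
H2-Ob: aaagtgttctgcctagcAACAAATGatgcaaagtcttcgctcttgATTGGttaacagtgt
H2-Oa: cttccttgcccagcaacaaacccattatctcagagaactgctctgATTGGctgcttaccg
H2-Eb1: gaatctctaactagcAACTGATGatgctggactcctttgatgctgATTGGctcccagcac
H2-Eb2: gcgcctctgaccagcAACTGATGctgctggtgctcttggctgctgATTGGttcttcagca
H2-Aa: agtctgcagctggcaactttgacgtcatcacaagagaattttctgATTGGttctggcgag

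These windows lie on chromosome 17, at chr17:34153085-34153144 for H2-DMb1, chr17:34145114-34145173 for H2-DMb2, chr17:34238803-34238862 for H2-Ob and chr17:34092291-34092350 for H2-Oa, all on the plus strand. Those of H2-Eb1 and H2-Eb2 are at chr17:34305763-34305822 and chr17:34325530-34325589 on the plus strand, and that of H2-Aa is at chr17:34287857-34287916 on the minus strand. In 5 of the 7 the X-like pattern preceded ATTGG, with a gap of 23 bases in H2-DMb1 and H2-DMb2, 22 in H2-Eb1 and H2-Eb2, and 20 in H2-Ob. The windows of H2-Oa and H2-Aa held ATTGG without these X letters. Other forms of the X box were not searched for, so a promoter without these letters may still hold one. Of all 32851 RefSeq promoters of this length, searched on both strands, 37.4% held ATTGG, 8.86% held AACNNATG, and 0.174% held the X-like pattern followed by ATTGG on the same strand after 10 to 30 bases. Because the X letters came from class II promoters, the last share describes how rare the layout is and tests nothing. Of the 2 promoters listed for H2-DMa, 1 held ATTGG and neither held the X-like pattern. ATTGG on either strand was also found in the promoters of Rfx5 and Rfxank, without the X-like pattern.

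**Figure D1:**
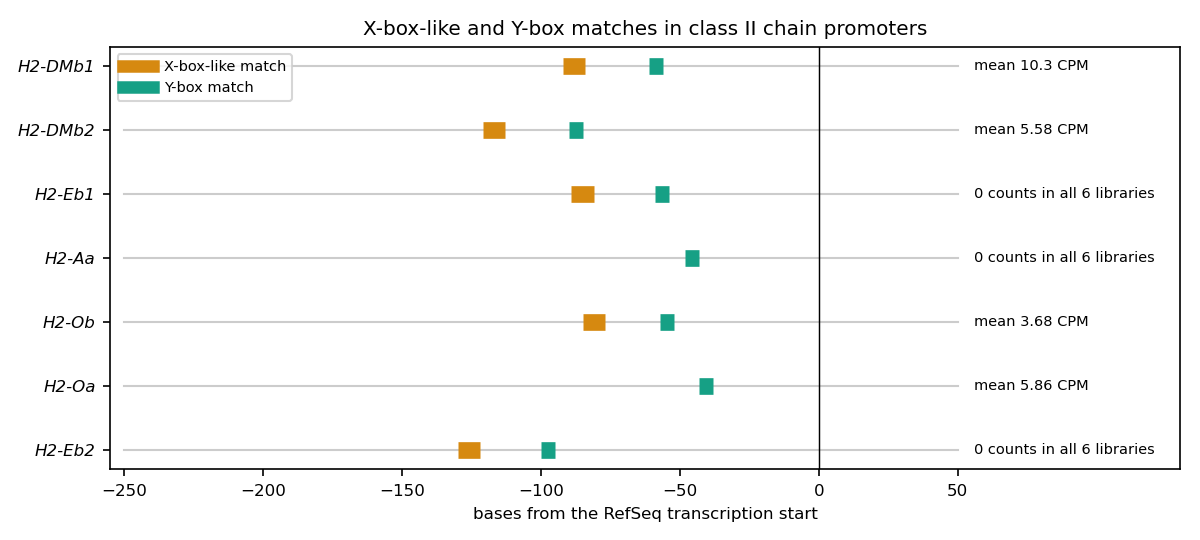
Positions of the X-box-like pattern (orange) and of ATTGG (green), as capitalised in the printed windows, in the promoters of 7 class II chains, in bases from the RefSeq transcription start, with the mean level of each gene over the 6 libraries in CPM at the right. The paired layout is present in H2-DMb1, H2-DMb2 and H2-Ob, which were counted, and in H2-Eb1 and H2-Eb2, which had 0 counts.

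Gene counts totalled between 16716979 and 19129250 in the S34F libraries and between 16509899 and 18119760 in the WT libraries. Levels are given in CPM, which are counts scaled to a common library size with factors from the trimmed mean of M values (TMM), and 1 count equalled 0.0520 to 0.0608 CPM. The counts of WT replicates 2 and 3 nearly matched, with a chi-square of 2.30 per degree of freedom between them. Other libraries paired within either group gave 24.7 to 39.8, and libraries paired between the groups gave 36.2 to 68.9. The lowest of the latter was S34F replicate 1 with WT replicate 1. WT replicate 1 gave 38.4 and 39.8 with WT replicates 2 and 3, so S34F replicate 1 was closer to it than its own group. S34F replicates 2 and 3 were further from WT replicate 1 than its own group was. Results that rest on WT replicates 2 and 3 are also given with both summed into 1 library. U2af1, the mouse gene, was counted at 57.3 to 91.9 CPM in S34F and 56.9 to 97.9 CPM in WT, which does not check the allele of the human construct. Of the early granulocyte lineage genes, Ctsg, Il3ra and Csf2rb were well counted, and Prtn3 and Mpo had counts in every library. Kit, Cd34 and Elane had at most 8 counts in any library, so some listed markers of this lineage were nearly absent in both groups.

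Across all genes, 293 of the 13444 tested passed an adjusted p of 0.05 in edgeR's quasi-likelihood test, which is 2.18% (1.58% higher and 0.595% lower in S34F). Among the 6 tested members 1 passed, Cd74, and it was higher in S34F. Since the set was proposed from this contrast, nothing is read from that count. Cd74 was also the one tested member whose S34F libraries all lay on one side of the WT libraries. All 3 S34F libraries lay above all WT libraries for 14.0% of the tested genes and below them for 13.1%, so groups did not overlap for 27.1%.

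Cd74 (ENSMUSG00000024610, chromosome 18, 60803848 to 60812652 on mm10, plus strand), the invariant chain gene, was the member with by far the most reads. It was counted at 127.1, 172.6 and 113.8 CPM across S34F replicates 1, 2 and 3, against 54.5, 25.2 and 23.8 CPM across WT replicates 1, 2 and 3. All S34F libraries lay above all WT libraries, and WT replicate 1 lay between the other WT libraries and the S34F libraries. The means were 137.9 ± 30.8 CPM in S34F and 34.5 ± 17.3 CPM in WT (SD, n = 3 each), with a log2 fold change of 2.0 ± 0.32 (SE), or 4.0-fold. In raw reads this was 7479 counts in the S34F libraries together and 1765 in the WT libraries together. Of the tested genes, 86.9% had a lower mean level than Cd74 in S34F and 55.0% in WT. By size of log2 fold change in either direction, Cd74 ranked 71 of 13444. With WT replicates 2 and 3 summed into 1 library the log2 fold change was 1.81 ± 0.34, and without WT replicate 1 it was 2.50 ± 0.19. Cd74 no longer passed the threshold over all genes in 7 of 16 alternatives, which were that sum, no filter on low counts, the replicate number as a block, and S34F replicate 1, S34F replicate 3, WT replicate 2 or WT replicate 3 left out. Without each of these libraries in turn its log2 fold changes were 2.04, 2.12, 1.81 and 1.79. In bulk RNA, more cells of a type and more RNA per cell cannot be told apart. Gene counts do not separate the isoforms of Cd74, of which the longer carries a thyroglobulin domain. No 50-base window of its longest coding transcript occurs in a transcript of another gene, so reads of that length are not shared with a copy.

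**Figure D2:**
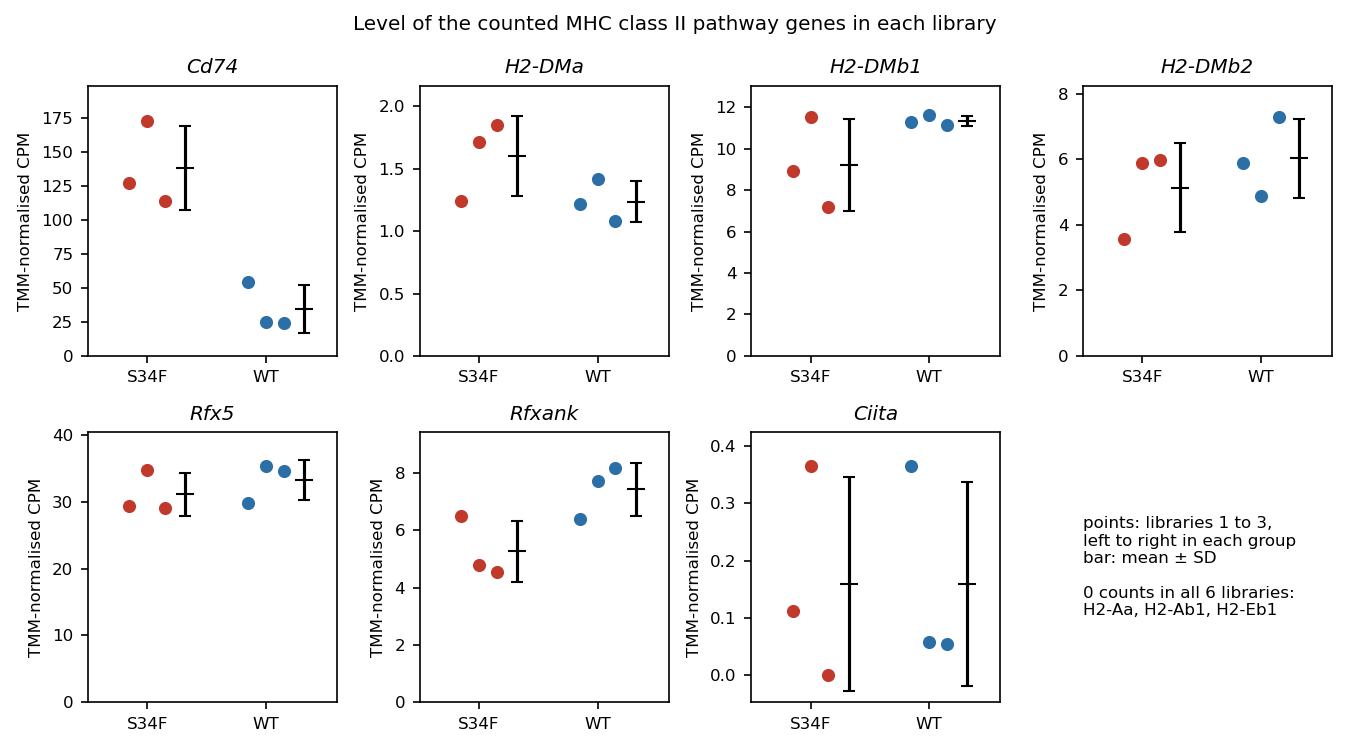
TMM-normalised CPM of the 7 members with any counts, in each S34F and WT library, with the mean and SD of each group. Cd74 has a separate S34F group between 113.8 and 172.6 CPM, above WT at 23.8 to 54.5 CPM, while the groups overlap for H2-DMa, H2-DMb1, H2-DMb2, Rfx5, Rfxank and Ciita.

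The classical class II chains were not counted. H2-Aa (ENSMUSG00000036594, chromosome 17, 34282744 to 34287823, minus strand), which encodes the alpha chain of I-A, had 0 counts in all 3 S34F and all 3 WT libraries. H2-Ab1 (ENSMUSG00000073421, 34257689 to 34269419, plus strand), its beta chain, and H2-Eb1 (ENSMUSG00000060586, 34305867 to 34316674, plus strand), the beta chain of I-E, also had 0 in every library. A count of 0 allows up to 3 counts, or 0.156 to 0.179 CPM in a single S34F library and 0.162 to 0.183 CPM in a single WT library. Over a whole group the limit was 0.0559 CPM in S34F and 0.0578 CPM in WT, for counting error only. Cd74, at 137.9 CPM in S34F and 34.5 CPM in WT, was thus counted in libraries that gave no read for these chains. The 3 genes shared no 50-base window of their longest coding transcripts with another gene. They are highly polymorphic between mouse strains, the labels do not give the H2 haplotype of 32D, and how many reads of another haplotype would reach the reference gene was not tested. H2-K1, a polymorphic class I heavy chain gene, had only 28 counts in the S34F libraries together and 22 in the WT libraries together, while H2-D1, another, had 1385 and 775.

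H2-DM, the peptide exchange factor, was counted at low levels in both groups. H2-DMa (ENSMUSG00000037649, 34119541 to 34139101, plus strand), its alpha chain, had 1.24, 1.72 and 1.85 CPM across S34F replicates 1, 2 and 3 and 1.22, 1.41 and 1.08 CPM across WT replicates 1, 2 and 3. The groups overlapped and the log2 fold change was 0.37 ± 0.32, with a 95% interval of the fold from 0.780 to 2.15. These levels rest on 20 to 33 counts a library. Exons of H2-DMa share 10.4% of their bases with Brd2 on the opposite strand. Brd2, a bromodomain gene, averaged 453.7 CPM in S34F and 329.2 CPM in WT, and whether any of its reads were counted for H2-DMa was not tested.

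H2-DMb1 (ENSMUSG00000079547, 34153072 to 34160230, plus strand) and H2-DMb2 (ENSMUSG00000037548, 34143307 to 34151555, plus strand) encode alternative beta chains of H2-DM and are neighbouring copies. H2-DMb1 had 8.92, 11.5 and 7.17 CPM across S34F replicates 1, 2 and 3, against 11.3, 11.6 and 11.1 CPM across WT replicates 1, 2 and 3. S34F replicates 1 and 3 lay below all WT libraries and S34F replicate 2 did not, and the log2 fold change was -0.30 ± 0.21. H2-DMb2 had 3.56, 5.88 and 5.97 CPM in S34F and 5.90, 4.89 and 7.30 CPM in WT, with a log2 fold change of -0.23 ± 0.28. Of the 50-base windows of their longest coding transcripts, 27.2% of H2-DMb1 and 29.5% of H2-DMb2 occur in another gene. For H2-DMb1 all 369 such windows occur in H2-DMb2, and for H2-DMb2 361 of 423 occur in H2-DMb1, so counts of the pair can be split in a way that was not given. Summed over both copies the level was 14.3 ± 2.69 CPM in S34F and 17.4 ± 0.986 CPM in WT (SD, n = 3 each). H2-DMb2 made up 35.9% ± 8.68 of their counts in S34F and 34.5% ± 4.98 in WT (SD, n = 3 each). The share differed more between libraries of 1 group than between the groups: it was 28.5% in S34F replicate 1 (exact 95% interval 22.7% to 35.0%) and 45.5% in S34F replicate 3 (38.8% to 52.3%).

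Set against H2-DMa within the same library, which needs no scaling, Cd74 had 102.4, 100.6 and 61.5 counts for each H2-DMa count in S34F replicates 1 to 3. The ratio was 44.8, 17.8 and 22.1 in WT replicates 1 to 3. The ratio was higher in every S34F library than in any WT library, as was Cd74 itself. Because H2-DMa overlapped between the groups, the ratio mostly restates the level of Cd74 and tests nothing further.

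The regulators were counted at widely different levels, and the libraries of the 2 groups overlapped for each of them. Ciita (ENSMUSG00000022504, chromosome 16, 10480059 to 10528418, plus strand), the master coactivator, had 2, 7 and 0 counts in S34F replicates 1 to 3 and 6, 1 and 1 counts in WT replicates 1 to 3. Summed, S34F had 9 counts and WT had 8, which is a ratio of 1.06 per read sequenced, with an exact 95% interval of 0.364 to 3.17 that covers counting error only. Ciita was too low to enter the test. The libraries with more of its reads were S34F replicate 2 and WT replicate 1, which do not share a group. Within their groups these were also the libraries with the most Cd74, at 172.6 and 54.5 CPM. A link of Ciita with Cd74 was not tested. S34F replicate 3 had 113.8 CPM of Cd74 and 0 counts of Ciita.

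Rfx5 (ENSMUSG00000005774, chromosome 3, 94954075 to 94961561, plus strand), the DNA-binding subunit of RFX, had 29.3, 34.8 and 29.1 CPM across S34F replicates 1, 2 and 3 and 29.7, 35.4 and 34.6 CPM across WT replicates 1, 2 and 3. The log2 fold change was -0.10 ± 0.13, and the 95% interval of the fold ran from 0.757 to 1.16. Rfxank (ENSMUSG00000036120, chromosome 8, 70130794 to 70139154, minus strand), the ankyrin repeat subunit, had 6.49, 4.78 and 4.54 CPM in S34F and 6.39, 7.72 and 8.16 CPM in WT. S34F replicate 1 lay just above WT replicate 1 and the other S34F libraries lay below all WT libraries, with a log2 fold change of -0.49 ± 0.23. Exons of Rfxank share 33.8% of their bases with Nr2c2ap on the opposite strand, which averaged 4.35 CPM in S34F and 2.38 CPM in WT, and those of Rfx5 share 26.8% with B230398E01Rik, at 0.128 CPM in S34F and 0.116 CPM in WT. The library kit was directional, but whether the counting used strand was not given, so these shared bases could hold reads of either gene.

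Per kilobase of annotated exon, the order of mean levels in S34F was Cd74 at 82.1 CPM per kb, Rfx5 at 5.65, H2-DMb1 at 5.48, H2-DMb2 at 2.94, Rfxank at 1.33, H2-DMa at 0.465 and Ciita at 0.0167 CPM per kb. In WT it was Cd74 at 20.6 CPM per kb, H2-DMb1 at 6.75, Rfx5 at 6.04, H2-DMb2 at 3.45, Rfxank at 1.87, H2-DMa at 0.359 and Ciita at 0.0167 CPM per kb. Rfx5 and H2-DMb1 overlapped in S34F, with 5.29 to 6.33 and 4.26 to 6.87 CPM per kb, and were apart in WT, with 5.41 to 6.43 and 6.63 to 6.90 CPM per kb. The other neighbours in the order did not overlap within either group. Cd74 was thus the highest member per length in both groups.

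Along the class II region of chromosome 17, counted genes and genes without counts occupied separate stretches. From H2-Oa through Brd2, H2-DMa, H2-DMb2, H2-DMb1, Psmb9, Tap1, Psmb8 and Tap2 to H2-Ob, all 10 annotated coding genes had counts in both groups. The 6 genes that follow, H2-Ab1, H2-Aa, H2-Eb1, H2-Eb2, the polymorphic pseudogene H2-Ea-ps and Btnl2, had 0 counts in the S34F libraries together and 1 count, of Btnl2, in the WT libraries together. H2-Oa and H2-Ob, the chains of the H2-DM inhibitor H2-O, had log2 fold changes of -0.22 ± 0.26 and -0.33 ± 0.51 and did not pass (edgeR adjusted p = 0.666 and 0.748). H2-Ob varied widely, with 2.60, 5.51 and 1.67 CPM across S34F replicates 1, 2 and 3 and 1.83, 5.24 and 5.24 CPM across WT replicates 1, 2 and 3.

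**Figure D3:**
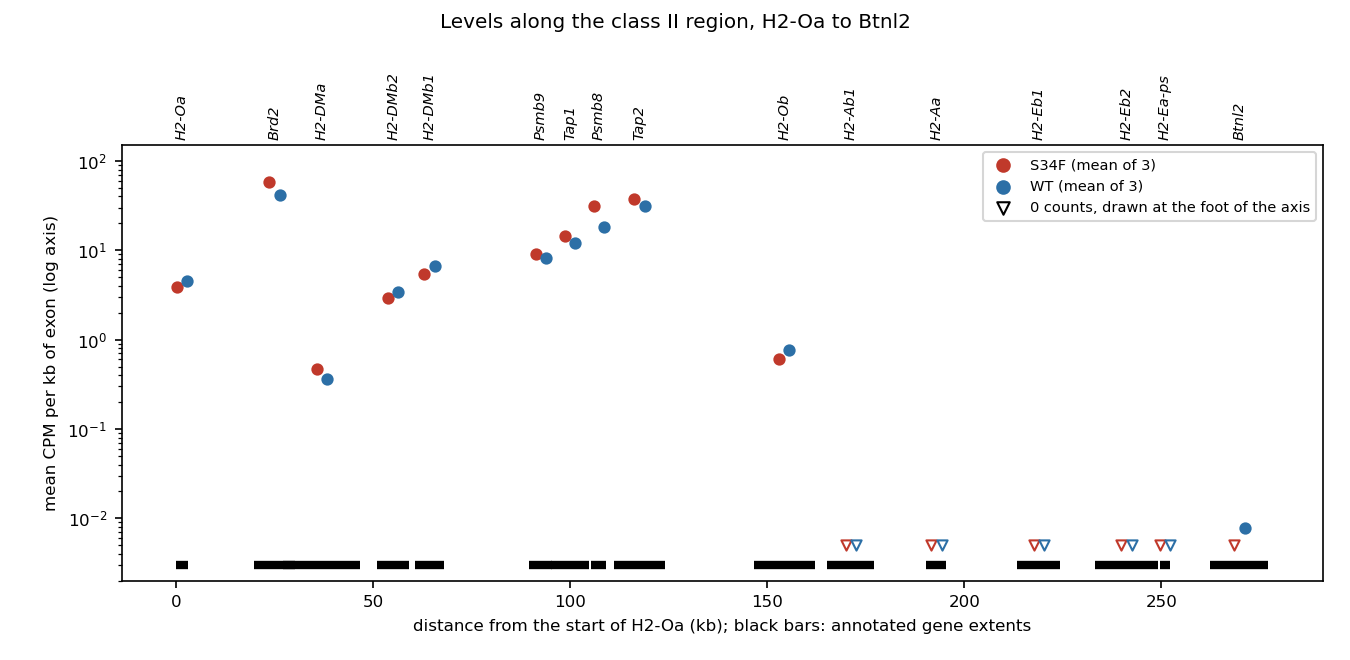
Mean level per kilobase of exon, on a log axis, of the annotated coding genes and the polymorphic pseudogene between H2-Oa and Btnl2, against distance from the start of H2-Oa in kb, for S34F and WT (means of 3 libraries each). The 10 genes up to H2-Ob were counted in both groups, the highest being Brd2 at 58.0 CPM per kb in S34F and 42.1 in WT, and the 6 genes after it hold a single count in all.

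Beyond the 10 members, 63 partner genes of the pathway were listed in 7 groups. Of these, 62 were matched, 49 could be tested, 3 rose and 0 fell in S34F, and 46 did not pass. Of all genes tested, 1.58% rose. The median log2 fold change of the 49 genes was 0.13, beside 0.00052 over all genes tested. DESeq2 called 10 of the 49 genes, beside 10.0% of all genes to which it gave an adjusted p, and limma-voom called 3, beside 2.01% of all genes. An unadjusted p under 0.05 in edgeR was found for 17 of the 49, beside 22.0% of all genes. With WT replicates 2 and 3 summed, none of the 49 passed in edgeR.

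Endolysosomal processing genes, which trim the invariant chain and the antigen, had the highest median among these groups, at 0.58 over 8 tested genes, of which 1 rose and 0 fell. Ctsz, a cysteine carboxypeptidase of lysosomes, had 432.7, 470.6 and 450.3 CPM across S34F replicates 1, 2 and 3 and 299.8, 178.2 and 185.5 CPM across WT replicates 1, 2 and 3. It rose with a log2 fold change of 1.03 ± 0.20 (edgeR adjusted p = 0.0408). Ctss, the cathepsin that removes most of the invariant chain in antigen presenting cells, had 10.2, 7.18 and 6.15 CPM in S34F and 3.95, 3.48 and 3.78 CPM in WT. Its groups did not overlap, with a log2 fold change of 1.06 ± 0.25 that did not pass (edgeR adjusted p = 0.0678). Ctsl, which does this work in thymic epithelium, had a log2 fold change of 1.72 ± 0.51 at 1.86 CPM in S34F and 0.564 CPM in WT, and Ctsd and Ctsb had 0.69 ± 0.15 and 0.46 ± 0.12 (edgeR adjusted p = 0.109, 0.0564 and 0.0773). Ifi30, the thiol reductase of endosomes, and Sppl2a, the protease that clears the last membrane stub of CD74, had log2 fold changes of -0.11 ± 0.20 and -0.15 ± 0.15. Ctsh had 0 counts in all 6 libraries. In this group edgeR called 1 of the 8 genes, DESeq2 5 and limma-voom 1, where over all genes they called 2.18%, 10.0% and 2.01%. The call of Ctsz was lost with WT replicates 2 and 3 summed (adjusted p = 0.161), with the GC trend removed (adjusted p = 0.0588), and without S34F replicate 1, 2 or 3 or WT replicate 2 or 3, where adjusted p lay between 0.0700 and 0.173. Its log2 fold change stayed between 0.88 and 1.32 over all 16 alternatives.

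Of 12 tested factors that act at the X and Y boxes or with CIITA, edgeR, DESeq2 and limma-voom each called 0. Over all genes they called 2.18%, 10.0% and 2.01%. An unadjusted p under 0.05 in edgeR was found for 3 of the 12, beside 22.0% of all genes. Nlrc5, the relative of CIITA that drives class I genes, had the smallest p, with 27.0, 25.0 and 25.7 CPM across S34F replicates 1, 2 and 3 and 19.4, 20.9 and 19.4 CPM across WT replicates 1, 2 and 3. The log2 fold change was 0.38 ± 0.13 and did not pass (edgeR adjusted p = 0.136). Rfxap, the remaining RFX subunit, had a log2 fold change of -0.07 ± 0.19, and the NF-Y subunit genes Nfya, Nfyb and Nfyc had 0.36 ± 0.13, -0.06 ± 0.11 and -0.08 ± 0.16 (edgeR adjusted p = 0.867, 0.165, 0.806 and 0.816).

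In the group of interferon gamma signalling and Ciita regulators, 1 of 10 tested genes rose and 0 fell, with a median log2 fold change of -0.07. Over all genes tested, 1.58% rose and 0.595% fell. DESeq2 and limma-voom each called 1 gene of this group, beside 10.0% and 2.01% of all genes. Spi1, which encodes PU.1, a myeloid transcription factor known to act on class II and Ciita promoters, had 217.1, 194.2 and 170.5 CPM across S34F replicates 1, 2 and 3 and 119.9, 131.3 and 133.9 CPM across WT replicates 1, 2 and 3. It rose with a log2 fold change of 0.60 ± 0.12 (edgeR adjusted p = 0.0491). That call lay close to the threshold and was lost in 9 of 16 alternatives, among them the summed WT replicates 2 and 3 (adjusted p = 0.192), library totals alone (0.0575), the GC trend removed (0.134), and S34F replicate 1, 2 or 3 or WT replicate 2 or 3 left out, with adjusted p from 0.0691 to 0.205. Irf1, which takes part in the induction of Ciita by interferon gamma, had a log2 fold change of -0.32 ± 0.26 (edgeR adjusted p = 0.503). Irf8, Irf4 and Prdm1 had 2, 1 and 1 counts in all 6 libraries together.

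For the surface partners of CD74 and the turnover of class II, edgeR called 0 of 5 tested genes, DESeq2 2 and limma-voom 0. Over all genes they called 2.18%, 10.0% and 2.01%. An unadjusted p under 0.05 in edgeR was found for 2 of the 5, beside 22.0% of all genes. Mif, the ligand of CD74, had 657.0, 531.1 and 457.2 CPM across S34F replicates 1, 2 and 3 and 477.3, 280.1 and 270.5 CPM across WT replicates 1, 2 and 3. S34F replicate 3 lay below WT replicate 1, and the log2 fold change of 0.68 ± 0.23 did not pass (edgeR adjusted p = 0.146). Its homologue Ddt had 10.9, 13.1 and 8.90 CPM in S34F and 7.24, 5.71 and 5.19 CPM in WT, with a log2 fold change of 0.86 ± 0.23 (edgeR adjusted p = 0.0852). Cd44 and Cxcr4, which signal with CD74, had log2 fold changes of -0.10 ± 0.18 and 0.25 ± 0.37 (edgeR adjusted p = 0.785 and 0.727). March1, the ubiquitin ligase that removes class II from the surface, had 17 counts in the S34F libraries together and 25 in the WT libraries together, and its relative March8 had a log2 fold change of -0.02 ± 0.13 (edgeR adjusted p = 0.950).

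Of 5 costimulatory ligand genes tested, edgeR, DESeq2 and limma-voom called 0, beside 2.18%, 10.0% and 2.01% of all genes. In edgeR 0 of the 5 had an unadjusted p under 0.05, beside 22.0% of all genes. Pdcd1lg2 had the smallest p, with a log2 fold change of 0.47 ± 0.23 (edgeR adjusted p = 0.277). Icosl and Icam1 were high in S34F replicate 2 alone, at 121.3 and 92.4 CPM, against 45.4 and 46.8 CPM for Icosl and 31.5 and 29.98 CPM for Icam1 in S34F replicates 1 and 3. Cd86 and Cd40 had too few counts to be tested.

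Among locus neighbours and class I genes, 1 of 7 tested genes rose, 0 fell, and all 7 had positive log2 fold changes with a median of 0.34. Over all genes tested, 1.58% rose and 50.1% were positive. In edgeR 4 of the 7 had an unadjusted p under 0.05, beside 22.0% of all genes. DESeq2 called 2 and limma-voom 1, beside 10.0% and 2.01% of all genes. Psmb8, an immunoproteasome subunit encoded within the class II region, had 114.2, 114.9 and 87.4 CPM across S34F replicates 1, 2 and 3 and 65.0, 60.0 and 60.8 CPM across WT replicates 1, 2 and 3. It rose with a log2 fold change of 0.77 ± 0.13 (edgeR adjusted p = 0.0286). Its call was lost with WT replicates 2 and 3 summed (adjusted p = 0.135) and without S34F replicate 1 or 2 or WT replicate 2 or 3 (adjusted p = 0.121, 0.0504, 0.145 and 0.143). Psmb9 and Tap1, its neighbours, had log2 fold changes of 0.13 ± 0.19 and 0.24 ± 0.22 (edgeR adjusted p = 0.732 and 0.554).

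**Figure D4:**
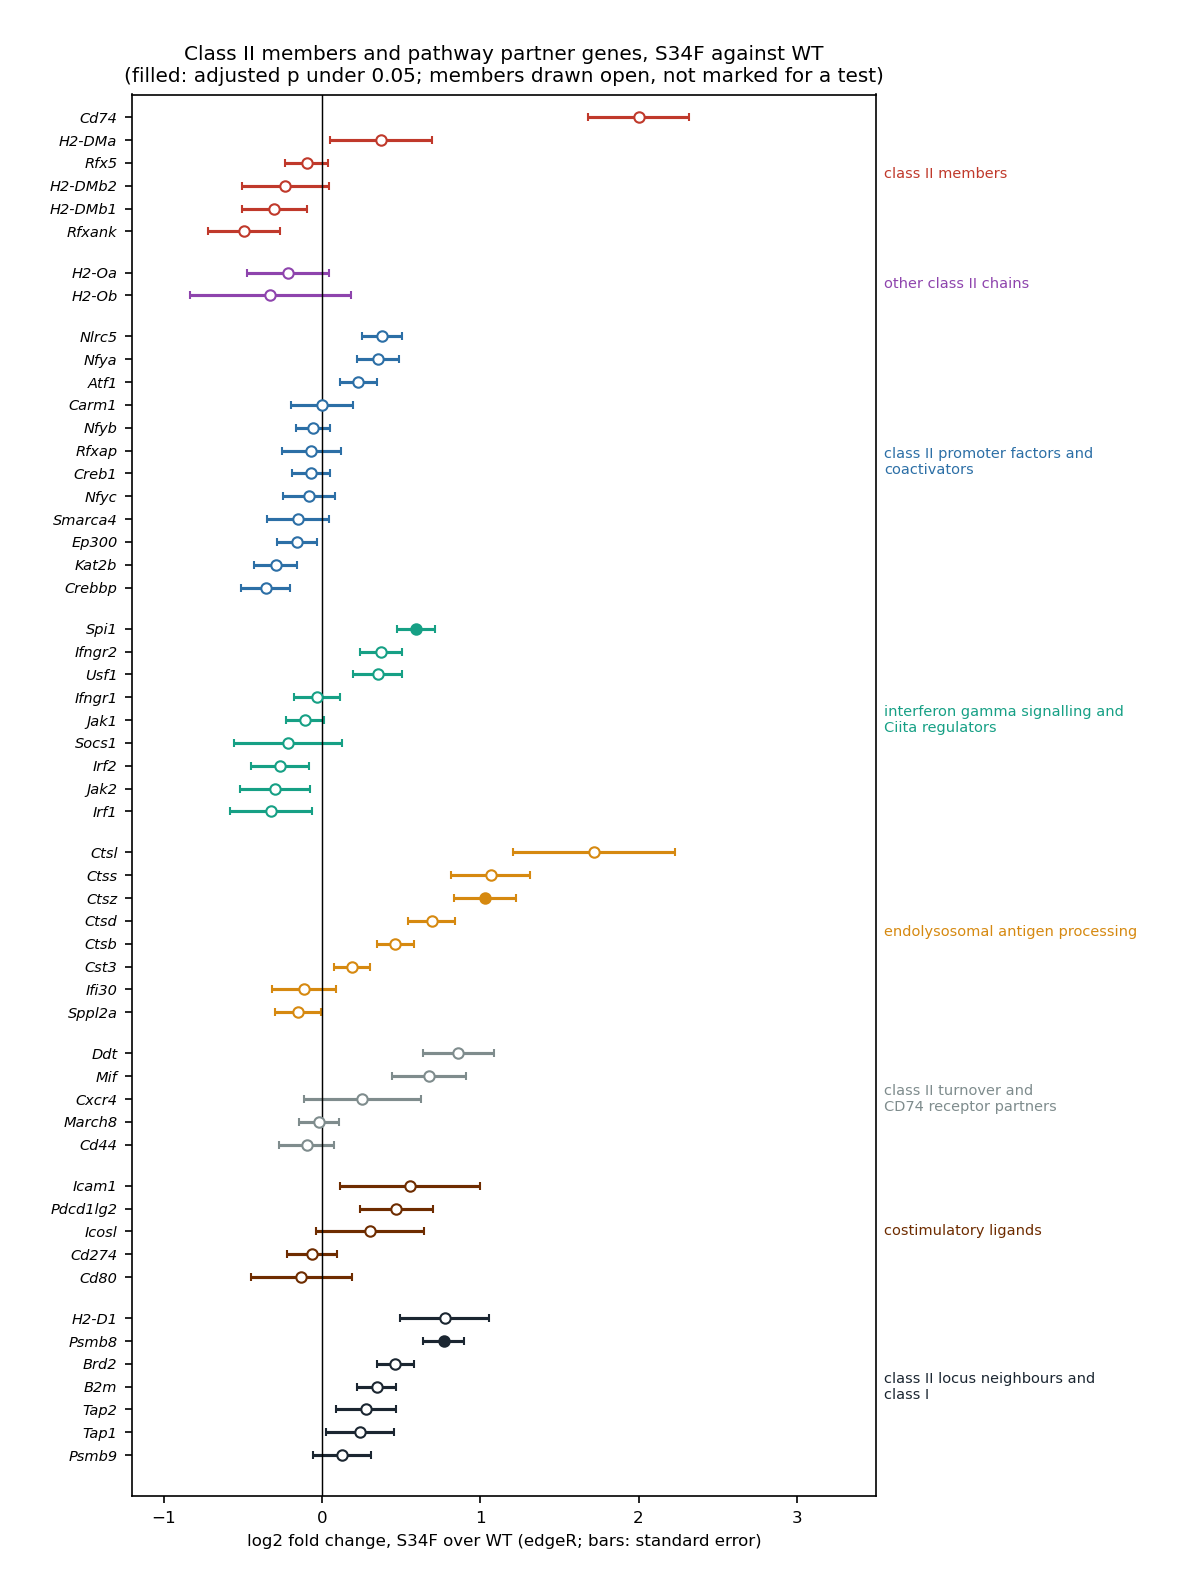
Log2 fold change of S34F over WT with its standard error for the 6 tested members and for tested partner genes, grouped by role. Cd74 stands at 2.0, apart from the other members between -0.49 and 0.37, and, with the members drawn open, the filled points are the partner genes that passed, Spi1, Ctsz and Psmb8.

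Markers of the cell types that express class II were counted beside Cd74. The 7 B cell markers summed to between 0.358 and 1.20 CPM in the S34F libraries and between 0.757 and 1.41 CPM in the WT libraries, and Ms4a1 and Ebf1 had 0 counts in all. The 10 dendritic cell markers summed to between 0.508 and 2.24 CPM in S34F and between 0.766 and 0.912 CPM in WT, with Siglech and Cd209a at 0 in all. No gene of these 2 lists had enough counts to be tested. The 6 T cell markers summed to between 0.208 and 0.597 CPM in S34F and between 0.852 and 1.12 CPM in WT, with Cd3e and Cd3g at 0 in all. Trac, the T cell receptor alpha constant gene, summed to 15 counts over S34F and 46 over WT, a difference that did not pass (edgeR adjusted p = 0.0865).

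Macrophage markers were counted and were, like Cd74, higher in sum in every S34F library than in any WT library. The 7 genes summed to between 311.7 and 394.7 CPM in S34F and between 249.5 and 266.3 CPM in WT. Adgre1, whose groups overlapped, made up most of this sum in every library. Higher sums in S34F were not particular to the macrophage markers. Early granulocyte lineage markers summed to between 1087 and 1304 CPM in S34F and between 945.4 and 972.8 CPM in WT. Most of that sum was Csf2rb, whose groups also overlapped. Sums of the endolysosomal genes and of the locus neighbours and class I genes lay apart in the same direction. All 5 tested macrophage markers had positive log2 fold changes with a median of 1.44, 1 rose, 0 fell and 4 did not pass. Over all genes tested, 50.1% were positive and 1.58% rose. Of the 5, DESeq2 called 2 and limma-voom 2, beside 10.0% and 2.01% of all genes. Fcgr1, a high-affinity Fc receptor, had 60.1, 33.6 and 49.2 CPM across S34F replicates 1, 2 and 3 and 13.7, 22.6 and 19.8 CPM across WT replicates 1, 2 and 3, and rose with a log2 fold change of 1.35 ± 0.25 (edgeR adjusted p = 0.0355). Without S34F replicate 1 or 3 or WT replicate 2 or 3 its adjusted p was 0.131, 0.112, 0.0907 and 0.124, and it was 0.112 with WT replicates 2 and 3 summed and 0.0544 with the GC trend removed. Cd68, a lysosomal membrane protein of macrophages, had 32.4, 32.2 and 32.0 CPM in S34F and 20.0, 7.54 and 7.46 CPM in WT, with WT replicate 1 the highest WT library, as for Cd74, and did not pass (edgeR adjusted p = 0.0695). Adgre1, which encodes F4/80, had 222.6 to 281.7 CPM in S34F and 198.4 to 230.1 CPM in WT, while Mertk had 0 counts in S34F and 4 in WT and Mrc1 had 21 and 19 counts. The part of these genes, or of the cells they mark, in the level of Cd74 was not tested. Among the 6 tested early granulocyte lineage markers, edgeR called 0, DESeq2 2 and limma-voom 0, beside 2.18%, 10.0% and 2.01% of all genes. An unadjusted p under 0.05 in edgeR was found for 2 of the 6, beside 22.0% of all genes. Il3ra had the smallest p, with a log2 fold change of 0.46 ± 0.10 (edgeR adjusted p = 0.0585).

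The profile of Cd74 over the 6 libraries was compared with those of 9676 genes at a mean of at least 2 CPM, by Pearson's r of log2 levels with a pseudocount of 0.5 CPM. The 5 most alike were Slfn2 (r = 0.998), Tmem189 (0.998), Srebf1 (0.998), Ganab (0.995) and Aldh3b1 (0.994). An r over 0.9 was reached by 446 of the 9676 genes, so with 6 libraries in 2 groups a high r says little about a link. Slfn2 had a log2 fold change of 2.18 and Aldh3b1 of 2.11, close to that of Cd74, while Srebf1 and Ganab had 0.35 and 0.27. None of the other tested members was among them: r with Cd74 was 0.61 for H2-DMa, -0.35 for H2-DMb2, -0.46 for Rfx5, -0.47 for H2-DMb1 and -0.86 for Rfxank.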

How the data were processed

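The authors deposited whole-number counts for Ensembl genes in 6 columns. HISAT2, featureCounts and mm10 are named, per the submitters' processing notes. The sources used here do not give versions, strand setting, annotation release or how multi-mapping reads were treated. Columns were matched to samples by name. Coordinates, exon lengths and transcripts came from GENCODE M21 on the same build, promoters from RefSeq. For 27 genes a date stood in place of the symbol, which was looked up from the gene ID.

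Counts were tested in edgeR 4.0.16 (R 4.3.3) with the robust quasi-likelihood F test, two-sided, TMM factors and the filterByExpr filter, with Benjamini-Hochberg adjustment over 13444 genes at 0.05 and 4 residual degrees of freedom before moderation. Standard errors are the log2 fold change over the root of F. Alternatives were other scaling factors and filters, DESeq2 1.42.0, limma-voom (limma 3.58.1), the replicate number as a block, WT replicates 2 and 3 summed, a loess GC trend (span 0.5) removed, and each library left out.

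Named genes were all members, up to 4 called genes of each list or its member with the smallest p, and the 5 genes most like Cd74. Further members of a list are named to describe it. The members and lists were chosen with earlier results of these data known, and the X-box letters after the promoters were read. Intervals and floors cover counting error only. Figures were drawn with matplotlib 3.10.9. Single values of 2 listed genes are not reported here, and they remain in the counts and sums of their lists.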

Additional observations from a re-analysis of the deposited data

How the results depend on the processing

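No direction of the 16 named tested genes reversed in any alternative run, and the fold of Cd74 lay between 3.46 and 5.66. The genes called over all genes, from 293, numbered 763 without a count filter, 1216 in DESeq2, 20 with WT replicates 2 and 3 summed and 159 with the GC trend removed. Partner genes called, from 3, numbered 8, 10, 0 and 1 in the same settings. Members called, from 1, numbered 0 without a filter and 0 with the summed replicates. Leaving out 1 library gave 19 to 1177 genes, 0 to 9 partner genes and 0 to 1 members. The cause of these shifts was not tested. The median log2 fold change of all genes moved by at most 0.033 between scalings. Same-numbered libraries correlated at 0.332, 0.159 and 0.0719 in their deviations from the group means. S34F replicate 1 had -0.259 and -0.243 with WT replicates 2 and 3. S34F replicates 2 and 3 had -0.206 and -0.101 with WT replicate 1. Because WT replicates 2 and 3 nearly match, values such as 0.0801 and 0.0719 for S34F replicate 3 cannot tell them apart. These values do not settle whether the numbers pair the samples. The labels state no pairing, so the main test used none and the block was an alternative. With the replicate block 1418 genes, 10 partner genes and 0 members were called, and Cd74, with a log2 fold change of 2.08, and Fcgr1 (edgeR adjusted p = 0.0506) lost their calls. Ciita and H2-DMa are limited by depth, with at most 7 and 33 counts in a library.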

Other observations

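The heavy and light chains of MHC class I were counted in the same libraries. B2m, the light chain, had 628.4, 796.6 and 660.3 CPM across S34F replicates 1, 2 and 3 and 527.6, 554.8 and 559.1 CPM across WT replicates 1, 2 and 3, with a log2 fold change of 0.35 ± 0.12 that did not pass (edgeR adjusted p = 0.158). H2-D1, a heavy chain gene, had 16.9, 36.9 and 22.5 CPM in S34F and 11.9, 16.5 and 16.2 CPM in WT, with a log2 fold change of 0.77 ± 0.28 that did not pass either (edgeR adjusted p = 0.158). For both genes all S34F libraries lay above all WT libraries, as for 14.0% of the tested genes.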
